A study of Mus musculus with 4 samples.

Results

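Axon guidance ligands and receptors were read in 4 primary mouse neuroblastomas, 1 array per tumour. The set holds every gene whose symbol places it among the semaphorins, plexins, neuropilins, ephrins, Eph receptors, Slits, Robos, netrins 1, 3, 4 and 5, and the netrin receptors DCC and UNC5. It came to 68 of the 22180 genes with a probe set of their own. Of these, 67 code for a ligand or receptor and 1, Plxna4os1, is a non-coding transcript antisense to Plxna4 that shares the name. Ephb2 and Ntn5 had no probe set of their own and were not analysed here. Where a gene had several probe sets, the one with the highest mean over the tumours stood for it.

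All 4 tumours form 1 group with the genotype Alk mutant, TH-MYCN and Stat6-/-, in mice of C57BL/6 and 129Sv/J parentage. TH-MYCN is a transgene that drives human MYCN from the promoter of tyrosine hydroxylase, an enzyme of sympathetic neurons, and the mice develop neuroblastoma. STAT6 is a transcription factor activated by IL-4 and IL-13 in macrophages and other cells, and every tumour here lacks it by its label. The sources used here do not give the Alk allele, the ages of the mice or whether the tumours came from separate mice, so the spread between tumours may in part be technical. Stat6-intact tumours are not part of the data used here, so nothing can be compared between conditions and p-values are not given.

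The labels name a neck muscle as the tissue, yet 0 of 15 skeletal muscle markers lay above background, while 17 of 17 measured sympathoadrenal markers did, among them Th, Dbh and Hand2. Background was set by 1394 olfactory and vomeronasal receptor genes: a gene was called detected if its 4-tumour mean lay beyond the 95th percentile of theirs, a level of 6.17 on the log2 scale. For a gene under this floor, presence is undetermined. Values are RMA levels in log2 units, in which a difference of 1 is 2-fold. Levels of different genes come from different probes and are not ranked against each other. Over all detected genes the median deviation from the gene's own mean was 0.12, 0.04, -0.09 and -0.08 in tumours 1 to 4, and deviations called relative below have it subtracted. Tumour 4 differed from the others in Xist, at 10.13 against 3.89 to 3.95, and in the Y-linked gene Uty, at 3.89 against 7.24 to 7.58, so its differences cannot be told apart from sex.

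Axon guidance genes steer growing nerve processes and migrating neural crest cells, the embryonic source of the sympathetic nervous system. Secreted and membrane-bound ligands (semaphorins, ephrins, Slits and netrins) are read by receptors on the growth cone (plexins with neuropilins, Eph kinases, Robos, and DCC with UNC5), which act on the cytoskeleton. Many of these genes also serve blood vessels and immune cells. In bulk tumour RNA, fewer cells of a type and less RNA per cell cannot be told apart.

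Of the 68 genes, 33 (48.5%) were detected, against 40.5% of all genes. Ligands had 19 of 34 detected and receptors 14 of 33. Plexins had 8 of 9, and neuropilins, Slits, ephrin-B ligands and class 5 semaphorins had all of their measured members above the floor. Eph receptors were mostly under it, with 2 of 9 EphA and 0 of 4 EphB genes detected, as were class 3 semaphorins, with 1 of 7. In 28 of the 33, every tumour lay above the floor. The exceptions were Nrp2, Efnb2, Epha5, Sema5a and Plxnd1, each with 1 tumour under it. A floor at the 99th percentile of the receptor genes left 19 detected.

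**Figure D1:**
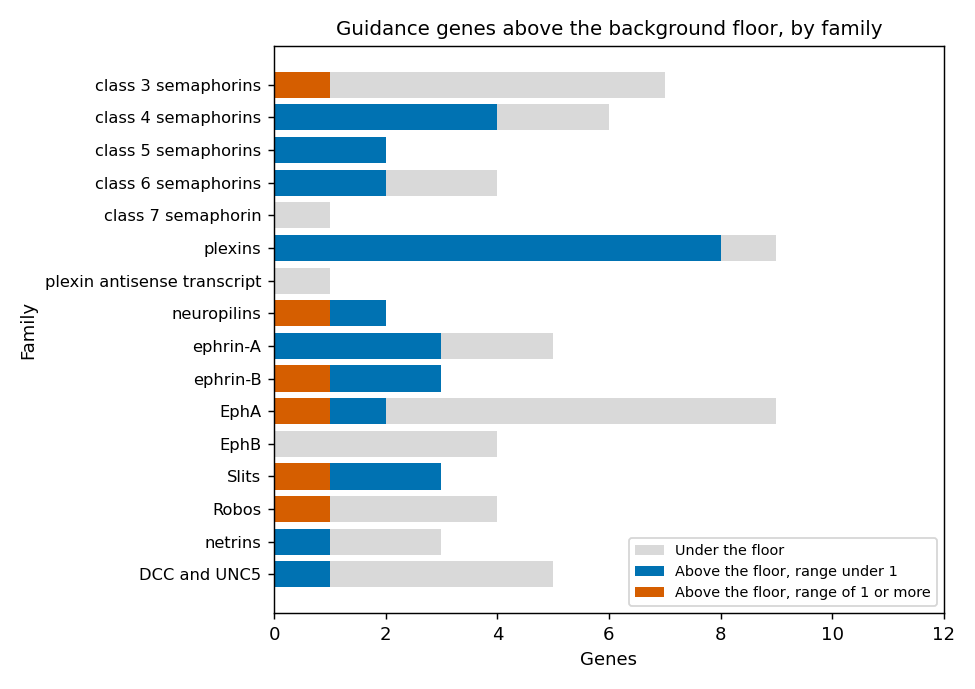
Bars give the number of genes per family (horizontal axis, genes), split into genes under the background floor, detected genes with a range over the 4 tumours under 1 log2 unit, and detected genes with a range of 1 or more. Plexins have 8 of 9 genes above the floor and EphB receptors 0 of 4.

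Secreted class 3 semaphorins, which repel axons through neuropilin and plexin complexes, were detected by 1 gene. Sema3c, a guidance cue of neural crest and vessels, measured 7.21, 6.96, 6.39 and 7.74 in tumours 1 to 4. Tumour 3 had its lowest and tumour 4 its highest level, a range of 1.35 log2 units (2.54-fold), with a mean of 7.07 ± 0.56 (SD, n = 4). Sema3f, a ligand of NRP2, stood just under the floor at 6.09 ± 0.17 (SD, n = 4), with tumour 4 above it at 6.30. The other 5, Sema3a, Sema3b, Sema3d, Sema3e and Sema3g, had means from 4.20 to 5.73.

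Membrane-bound semaphorins were detected in 8 of 12 genes of classes 4, 5 and 6. In class 4, Sema4b measured 7.22, 7.07, 6.85 and 6.91 in tumours 1 to 4, Sema4c 7.64, 7.37, 7.48 and 7.37, and Sema4d, a ligand of plexin-B1, 6.45, 6.54, 6.66 and 6.49. These 3 were steady, with ranges from 0.21 to 0.38. Sema4f, a neuronal semaphorin, measured 6.89, 6.37, 6.45 and 7.05, high in tumours 1 and 4 and low in tumours 2 and 3. Sema4a and Sema4g stayed under the floor, at means of 5.71 and 5.78.

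In class 5, Sema5a, a transmembrane semaphorin with thrombospondin repeats, measured 7.02, 6.67, 6.08 and 6.70. Tumour 3 was the lowest, and the range was 0.94. Sema5b, its relative, measured 6.26, 6.62, 6.23 and 6.62, with tumours 1 and 3 on one side and 2 and 4 on the other. Among class 6 semaphorins, which signal through plexin-A receptors, Sema6a measured 7.31, 7.40, 6.78 and 7.36. Tumour 3 lay 0.53 below the next of the other tumours. Sema6d measured 8.56, 8.29, 8.03 and 8.73, again lowest in tumour 3. Sema6b and Sema6c were under the floor, as was Sema7a, a membrane-anchored ligand of plexin-C1, whose mean of 6.16 ± 0.14 (SD, n = 4) fell just short of it.

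Plexins, the signalling receptors of semaphorins, were detected in 8 of 9 genes, and none of these had a range of 1 log2 unit. Plxna4, a receptor of sympathetic and sensory neurons, measured 9.56, 9.25, 9.52 and 9.64 in tumours 1 to 4. Plxna1 measured 8.69, 8.30, 8.30 and 8.64, and Plxna3, on the X chromosome, 9.01, 8.45, 8.52 and 8.80, so both lay higher in tumours 1 and 4. Plxna2 was the steadiest plexin, from 7.40 in tumour 4 to 7.58 in tumour 1. Plxnb1, the SEMA4D receptor, ran from 7.15 in tumour 3 to 7.62 in tumour 1 and Plxnb2 from 8.43 in tumour 3 to 8.71 in tumour 2.

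Plxnc1, the SEMA7A receptor, measured 7.07, 6.69, 6.30 and 6.46. Plxnd1, a receptor also of endothelial cells, went another way, at 6.70, 6.67, 7.02 and 6.14, highest in tumour 3 and just under the floor in tumour 4. Of 15 endothelial markers 2 were detected, Cdh5 and Egfl7, while Pecam1 and Kdr were under the floor. The linear levels of all 15 summed to between 608 in tumour 4 and 636 in tumour 3. Cdh5 stood at 6.45, 6.51, 6.61 and 6.32 in tumours 1 to 4, and Egfl7 at 6.17, 6.09, 6.35 and 6.22. Both were highest in tumour 3, as Plxnd1 was. Cdh5 was lowest in tumour 4, as Plxnd1 was, and Egfl7 in tumour 2. The part of endothelial cells in the Plxnd1 values was not tested. Plxnb3, carried on the X chromosome, had a mean of 4.78 and Plxna4os1 one of 5.12, both under the floor. Plxna1 and Plxnb1 each had a further probe set, with means of 5.77 and 4.54, under the floor.

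Both neuropilins, the co-receptors that bind class 3 semaphorins and VEGF, were detected. Nrp1 measured 9.23, 8.66, 8.53 and 9.22 in tumours 1 to 4, higher in tumours 1 and 4 than in tumours 2 and 3. Nrp2 measured 8.13, 7.57, 6.06 and 7.64, and its 7.35 ± 0.89 (SD, n = 4) spanned 2.06 log2 units, or 4.18-fold, the widest range of the set. Tumour 3 lay 1.51 below the next tumour and under the floor. Without tumour 3 the range of Nrp2 was 0.55.

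**Figure D2:**
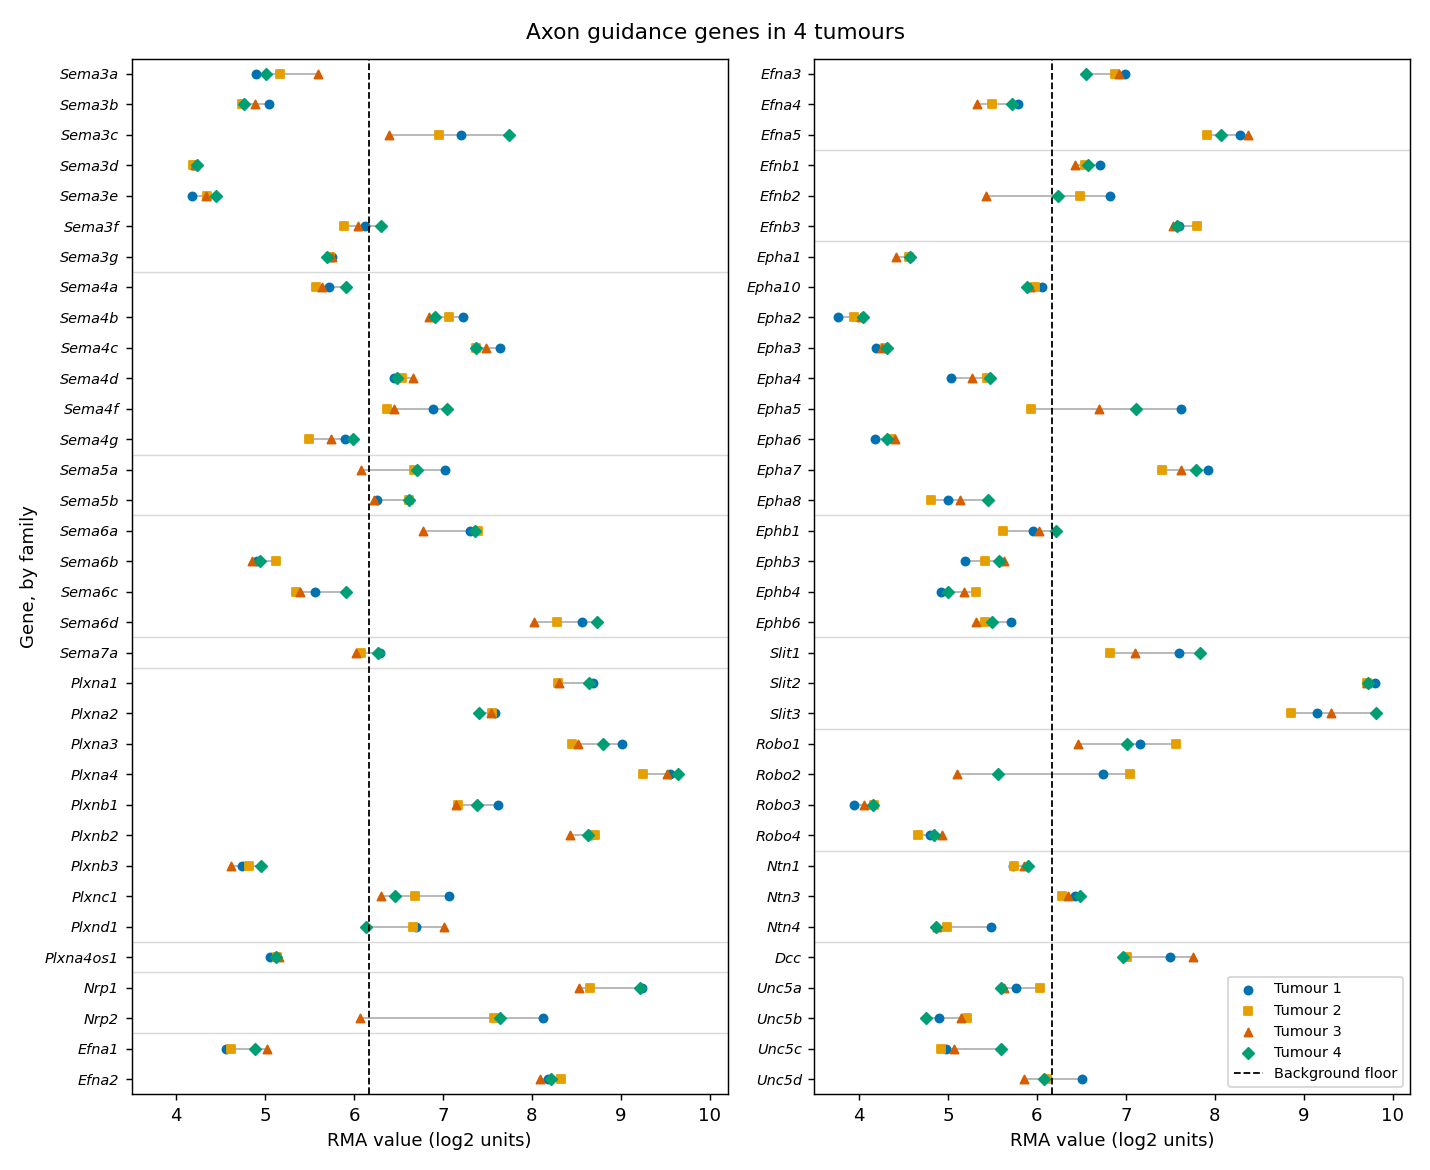
Each row is 1 gene, with its RMA level (horizontal axis, log2 units) in tumours 1 to 4 as points joined by a grey line, and the background floor of 6.17 dashed. Rows are ordered by family, separated by pale lines. Nrp2, Robo2 and Epha5 have the longest lines, and Slit2 lies between 9.71 and 9.80 in every tumour.

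Ephrins are membrane-bound ligands whose contact with Eph kinases repels or sorts cells, and they can signal back into the cell that carries them. Of the ephrin-A genes, anchored by a lipid, 3 of 5 were detected. Efna2 measured 8.18, 8.33, 8.09 and 8.21 in tumours 1 to 4, Efna3 6.99, 6.88, 6.92 and 6.55, and Efna5 8.29, 7.91, 8.37 and 8.07. Their ranges were 0.24, 0.44 and 0.46. Efna1 and Efna4, which adjoin Efna3 on chromosome 3, were under the floor, with means of 4.77 and 5.58.

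The 3 ephrin-B genes, which carry a cytoplasmic tail, behaved unequally. Efnb1, on the X chromosome, measured 6.71, 6.54, 6.43 and 6.58, and Efnb3 7.60, 7.80, 7.53 and 7.58. Efnb2, an ephrin of arteries and of migrating neural crest, measured 6.83, 6.48, 5.43 and 6.23, which gave 6.24 ± 0.60 (SD, n = 4), a mean just above the floor. Each ephrin-B was lowest in tumour 3, by little in Efnb1 and Efnb3 and by 0.81 below the next tumour in Efnb2. Relative to all detected genes, only Efnb2 was lowest there (-0.73). On that scale Efnb1 was lowest in tumour 2 (-0.07) and Efnb3 in tumour 1 (-0.15).

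Among Eph receptors, 2 of 13 were detected, both of the EphA class. Epha7 measured 7.93, 7.41, 7.62 and 7.79 in tumours 1 to 4. Epha5, a neuronal receptor of ephrin-A ligands, measured 7.62, 5.94, 6.70 and 7.11, a range of 1.68 log2 units (3.22-fold). Both were lowest in tumour 2 and, in the deposited values, highest in tumour 1. Relative to all detected genes, Epha5 stayed highest in tumour 1 (0.66), but Epha7 was highest in tumour 4 (0.19, against 0.12 in tumour 1). The range of Epha5 was 0.93 without tumour 2. Epha10, whose kinase is held to be inactive, and Ephb1 lay closest under the floor, at 5.96 ± 0.08 and 5.95 ± 0.25 (SD, n = 4), and Ephb1 reached 6.22 in tumour 4. Its other probe set had a mean of 4.49. The other 9 (Epha1, Epha2, Epha3, Epha4, Epha6, Epha8, Ephb3, Ephb4 and Ephb6) had means from 3.95 to 5.49. Ephrin-B ligands were thus read above background, while none of the 4 measured EphB receptors was.

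Slits are large secreted proteins that repel axons through Robo receptors. All 3 were detected. Slit2 was nearly constant, at 9.80, 9.71, 9.71 and 9.72 in tumours 1 to 4, or 9.74 ± 0.04 (SD, n = 4). Slit1 measured 7.60, 6.82, 7.10 and 7.84, a range of 1.01, and Slit3 measured 9.15, 8.85, 9.31 and 9.81, a range of 0.96. Both had their lowest value in tumour 2 and their highest in tumour 4. Slit1 lost its 2-fold range without tumour 2 (0.74) and without tumour 4 (0.77), and Slit3 gained one after a further quantile normalization (1.11) and with the arrays at a common median of detected genes (1.08).

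The neuronal Slit receptors Robo1 and Robo2, which are neighbouring protein-coding genes on chromosome 16, ran in another order. Robo1 measured 7.16, 7.56, 6.47 and 7.01 in tumours 1 to 4, or 7.05 ± 0.45 (SD, n = 4). Robo2 measured 6.74, 7.05, 5.10 and 5.56, so that tumours 1 and 2 lay above the floor and tumours 3 and 4 under it. Its mean of 6.11 ± 0.93 (SD, n = 4) missed the floor, and its range of 1.95 log2 units was 3.86-fold. In the deposited values the order of the tumours was the same in both receptors: 2, 1, 4, 3 from high to low. Relative to all detected genes, Robo2 kept this order, but in Robo1 tumour 4 (0.05) lay above tumour 1 (-0.02). Tumours 2 and 3 stayed highest and lowest in both. The range of Robo1 was 1.09, and 0.96 once the arrays were brought to a common median of detected genes. It was 0.69 without tumour 2 and 0.55 without tumour 3. Robo3, a receptor of commissural axons, and Robo4, the endothelial Robo, were under the floor, with means of 4.08 and 4.81.

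Netrins attract axons through DCC and repel them through UNC5 receptors. Netrin genes had 1 of 3 detected. Ntn3 measured 6.43, 6.28, 6.35 and 6.48 in tumours 1 to 4, close above the floor in each. Ntn1, the best studied netrin, had a mean of 5.80 ± 0.08 (SD, n = 4), and Ntn4, a basement membrane netrin, one of 5.05, both under it. Dcc measured 7.49, 7.01, 7.76 and 6.97, higher in tumours 1 and 3 than in tumours 2 and 4 and highest in tumour 3. Of the UNC5 receptors, Unc5d stood at 6.14 ± 0.27 (SD, n = 4), with tumour 1 above the floor at 6.51, and Unc5a, Unc5b and Unc5c had means of at most 5.76.

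Over the 4 tumours, the detected guidance genes spanned a median range of 0.52 log2 units, against 0.41 for all 8989 detected genes. A range of 1 or more was reached by 6 of 33 (18.2%), which were Nrp2, Epha5, Efnb2, Sema3c, Robo1 and Slit1, against 4.26% of all detected genes. With no regard to detection, the count was 7 of 68 (10.3%), Robo2 being the addition, against 2.74% of all genes. Single tumours carried much of this. Without tumour 2, 2 of 32 had such a range, Nrp2 and Sema3c, against 3.07% of all detected genes. Efnb2 kept a range of 1.40 there, but its mean fell under the floor, then 6.20. Without tumour 3, 3 of 36 had such a range, against 2.82%. They were Epha5, Slit1 and Robo2, whose mean then passed the floor. With a floor at the 99th percentile, 2 of 19 had such a range, Nrp2 and Slit1, against 3.67%. Where every tumour had to exceed the floor, it was 3 of 28, against 3.31%. These shares describe 4 arrays, and no test was made of the difference.

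Several of the widest members were low in the same tumour. Of the 33 detected genes, 16 (48.5%) had their lowest value in tumour 3, against 36.1% of all detected genes. Among the 6 with a range of at least 1, tumour 3 was lowest in 4 (Nrp2, Efnb2, Robo1 and Sema3c), against 26.6% of all detected genes with such a range. In tumour 3, 6 of 33 (18.2%) lay at least 0.3 below their own mean relative to all detected genes, against 3.58%. They were Nrp2 (-1.20), Efnb2 (-0.73), Sema3c (-0.60), Robo1 (-0.50), Sema5a (-0.46) and Sema6a (-0.35), which include receptors, secreted ligands and membrane-bound ligands. The shift was not shared by the whole set: its median relative deviation in tumour 3 was -0.08, and Dcc (0.54) and Plxnd1 (0.47) lay above their means there.

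**Figure D3:**
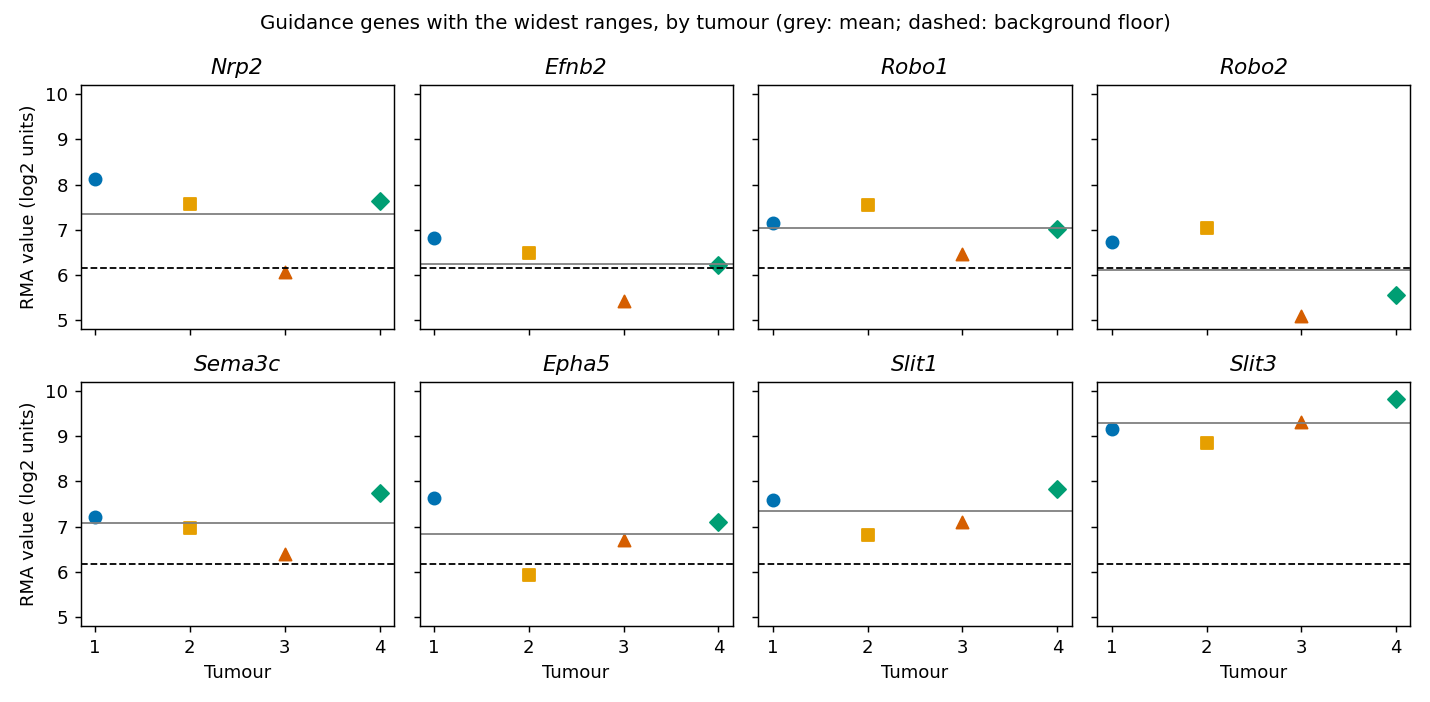
Each panel shows the RMA level (vertical axis, log2 units) of 1 gene in tumours 1 to 4 (horizontal axis), with the gene's mean in grey and the background floor dashed. Nrp2, Efnb2, Robo1, Robo2 and Sema3c are lowest in tumour 3, while Epha5, Slit1 and Slit3 are lowest in tumour 2.

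Markers of other cells also differed in tumour 3. Of 14 macrophage markers 10 were detected, and the linear levels of all 14 summed to 2419 in tumour 3 and 3628 to 4071 in the others. Of the 10, 9 were lowest in tumour 3, against 36.1% of all detected genes, and Cx3cr1 was lowest in tumour 2, at 7.08. The 3 detected macrophage markers with the widest range, Csf1r, Lyz2 and Trem2, were each lowest in tumour 3, at 5.64 (under the floor), 9.41 and 6.29. Of 10 measured Schwann cell markers 3 were detected, and all 10 summed to 1410 in tumour 3 and 2173 to 2869 in the others. Gfra3 and Fabp7 had the highest levels, so the sum mainly follows these genes. The 7 markers under the floor did not share a lowest tumour. Fabp7, a lipid carrier of glia, measured 9.54, 8.49, 6.49 and 8.32 in tumours 1 to 4. Gfra3 was also lowest in tumour 3, at 9.73, and Pmp22 was not. The defining Schwann cell factor Sox10 was under the floor at 5.64 ± 0.19 (SD, n = 4) and was highest in tumour 3, at 5.87. Fibroblast markers had 11 of 15 detected, with sums over all 15 from 1662 in tumour 4 to 2946 in tumour 1. Pericyte markers had 4 of 10 detected, with sums over all 10 from 1166 in tumour 4 to 1564 in tumour 2. Neither sum was lowest in tumour 3. Of the detected genes, 3 of 11 fibroblast markers (Fbln1, Col6a1 and Col6a2) and 0 of 4 pericyte markers were lowest there, against 36.1% of all detected genes. The part of these cells in the values of Nrp2, Efnb2, Robo1 and Sema3c was not tested.

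The 4 genes with a range of at least 1 that were lowest in tumour 3 have 1 promoter each in the RefSeq table of build GRCm38.p6, and these are shown because their transcripts were low together. Each is the 250 bases before the transcription start, 5′ to 3′ on the gene's strand, at chr1:62703067-62703316 (plus strand) for Nrp2, chr8:8661243-8661492 (minus) for Efnb2, chr16:72662899-72663148 (plus) for Robo1 and chr5:17574566-17574815 (plus) for Sema3c. Capitals mark matches on either strand to GGGCGG (the GC box of SP factors), CCAAT (the NF-Y box), CACGTG (the E-box of MYC and MAX), CATCTG (an E-box of HAND and TWIST factors), AGATAA (for GATA factors), TGATAA (likewise for GATA factors) and TAATTA (for homeodomain factors).
Nrp2: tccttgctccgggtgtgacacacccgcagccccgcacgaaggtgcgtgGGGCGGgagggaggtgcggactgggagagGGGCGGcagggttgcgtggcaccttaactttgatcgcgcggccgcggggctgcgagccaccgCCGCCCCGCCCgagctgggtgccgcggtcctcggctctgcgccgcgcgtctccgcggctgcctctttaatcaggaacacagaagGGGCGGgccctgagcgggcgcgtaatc
Efnb2: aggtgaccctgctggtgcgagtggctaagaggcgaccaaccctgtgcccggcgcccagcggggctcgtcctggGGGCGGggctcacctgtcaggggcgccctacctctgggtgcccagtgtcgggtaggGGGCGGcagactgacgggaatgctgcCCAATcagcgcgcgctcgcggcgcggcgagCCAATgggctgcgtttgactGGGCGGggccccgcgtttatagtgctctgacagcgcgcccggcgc
Robo1: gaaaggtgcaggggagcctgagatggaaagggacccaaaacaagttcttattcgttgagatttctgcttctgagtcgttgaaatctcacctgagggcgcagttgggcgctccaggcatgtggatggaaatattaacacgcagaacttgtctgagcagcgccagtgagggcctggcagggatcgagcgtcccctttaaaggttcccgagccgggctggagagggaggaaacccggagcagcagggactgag
Sema3c: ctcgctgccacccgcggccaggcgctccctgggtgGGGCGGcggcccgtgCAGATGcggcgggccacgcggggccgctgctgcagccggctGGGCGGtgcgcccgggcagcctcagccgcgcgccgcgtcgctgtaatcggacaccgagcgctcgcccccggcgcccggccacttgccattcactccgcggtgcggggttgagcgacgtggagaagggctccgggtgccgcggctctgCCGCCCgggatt

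GC boxes occurred 5 times in the Nrp2 window, with 1 base shared by a pair of them, 3 times in that of Efnb2 and 3 times in that of Sema3c, and the Robo1 window held none. Efnb2 had CCAAT 2 times, and Sema3c had 1 match to CATCTG, read as CAGATG. The MYC E-box, both GATA sites and the homeodomain site had 0 matches in these 4 windows. The Robo1 window matched no motif searched, so the 4 windows share none of them. Of all 32851 promoter windows of this length, 32.7% held GGGCGG, 33.8% CCAAT, 6.02% CACGTG, 14.4% CATCTG, 9.99% AGATAA, 7.94% TGATAA and 4.84% TAATTA. Of the 73 windows of the 57 guidance genes in the table, 53 (72.6%) held GGGCGG, 19 (26.0%) CCAAT, 4 (5.48%) CACGTG, 5 (6.85%) CATCTG, 3 (4.11%) AGATAA, 3 (4.11%) TGATAA and 3 (4.11%) TAATTA. Guidance promoters were also richer in G and C, with a median of 64.4% against 52.4% of all windows, and the part of this in the share with GGGCGG was not tested. A match is a description of letters, and the absence of one says nothing of a factor.

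Tumour 4 went the other way from tumours 2 and 3. Of the 33 detected genes, 7 (21.2%) were highest in tumour 4, against 15.5% of all detected genes, and 25 lay above the median of detected genes there. The median relative deviation was 0.13 in tumour 4, against 0.03 in tumour 1, -0.07 in tumour 2 and -0.08 in tumour 3. At least 0.3 above their own mean on that scale were 8 of 33 (24.2%), against 7.81% of all detected genes: Sema3c (0.75), Slit3 (0.61), Slit1 (0.58), Sema4f (0.44), Sema6d (0.41), Nrp1 (0.39), Nrp2 (0.37) and Epha5 (0.35). Plxnd1 (-0.41) and Dcc (-0.26) lay below theirs. As a list, the sympathoadrenal markers likewise had their top median relative deviation in tumour 4, at 0.26, and their bottom one in tumour 2, at -0.22. Single markers varied. Of the 4 with a range of at least 1, Gata2 shared this pattern, at 9.07 in tumour 4 and 8.02 in tumour 2. Prph had its minimum in tumour 4, at 7.51, against 9.32 in tumour 1. Slc6a2 and Slc18a1 peaked in tumour 1, at 8.22 and 7.08, with minima of 7.01 and 6.01 in tumour 3. The part of tumour cell content in the guidance values was not tested.

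In tumour 1 the share of highest values was close to that of the arrays as a whole: 16 of 33 (48.5%) had their highest value there, against 46.6% of all detected genes. In tumour 2 the share of lowest values was above it: 12 of 33 (36.4%) had their lowest there, against 17.8%, among them all 3 Slits and both detected EphA receptors. The Slit2 values were too close to each other for its order to be read.

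**Figure D4:**
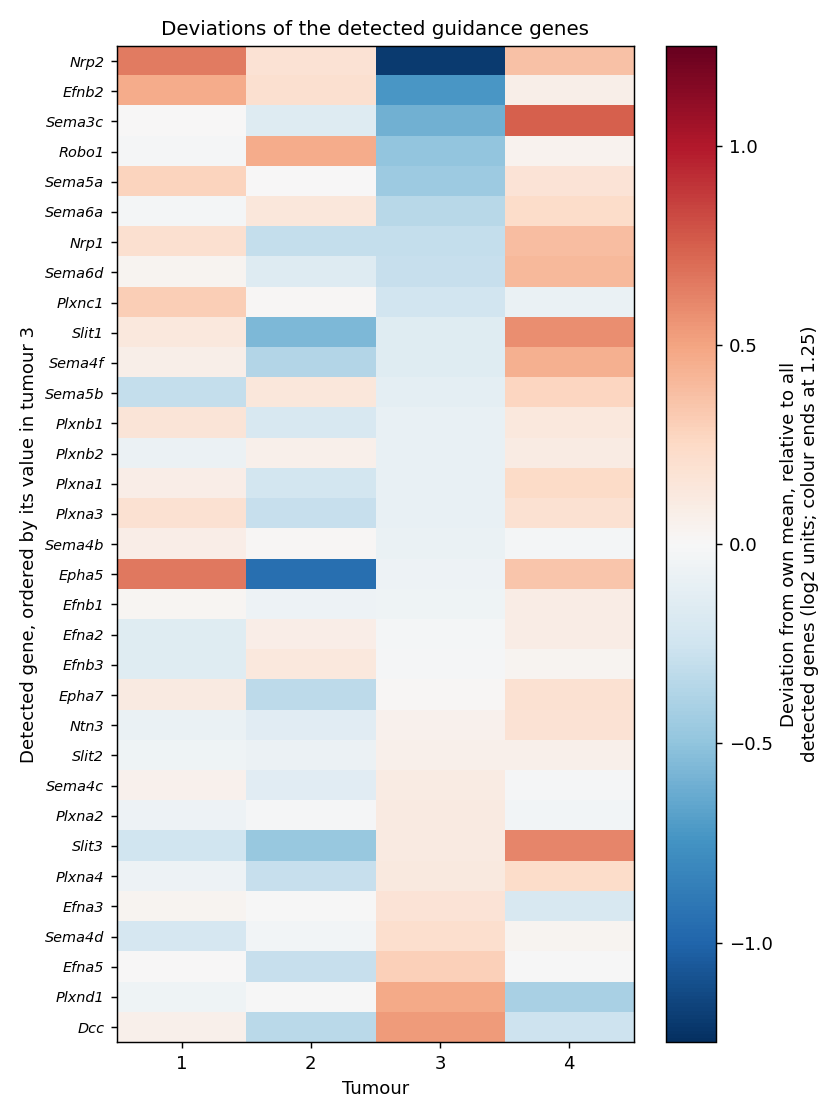
Colours give each detected gene's deviation from its own mean in tumours 1 to 4, relative to the median of all detected genes (log2 units), with genes ordered by tumour 3. Nrp2 is the lowest in tumour 3, at -1.20, and Dcc the highest there, at 0.54, while most genes in the middle stay near 0.

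In the deposited values, 2 of 33 detected genes (6.06%) had 1 tumour apart from the other 3, against 3.83% of all detected genes. Its gap took more of the range than Dixon's 95% critical value allows. These were Sema6a, low in tumour 3, and Slit2, high in tumour 1 by 0.08 log2 units. The ratio keeps the offset between arrays and was not taken on the relative scale. On that scale Slit2 was not high in tumour 1 (-0.06, against 0.06 in tumours 3 and 4). Sema6a stayed lowest in tumour 3 (-0.35, against -0.03 to 0.23 in the others).

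Of 56 measured co-receptors and cytoplasmic effectors of these pathways, 45 (80.4%) were above the floor, against 40.5% of all genes, with a median range of 0.40 against 0.41 for all detected genes. That list holds genes that most cells use, such as Cdc42, Rac1 and Gsk3b. Steady members included Farp1, a guanine nucleotide exchange factor that acts downstream of plexin-A, at 8.39 ± 0.04, and Trio, an exchange factor of netrin signalling, at 8.88 ± 0.05 (SD, n = 4). A range of at least 1 was found in 3 of 45 (6.67%), against 4.26% of all detected genes. Mical2, of the enzymes that oxidise actin after plexin activation, measured 7.57, 8.06, 8.45 and 6.90 in tumours 1 to 4. Islr2, a membrane protein that binds receptors of growing axons, measured 6.80, 6.21, 6.06 and 7.55. Dpysl4, a collapsin response mediator, measured 6.96, 6.24, 5.92 and 6.56. The next widest range, 0.95, was that of Flrt1, of the membrane proteins that bind UNC5 receptors, at 6.89, 5.94, 6.55 and 6.62. Mical2 was highest in tumour 3, while Islr2 and Dpysl4 were lowest there.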

How the data were processed

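Total RNA from 4 primary tumours, isolated by Trizol, was biotin-labelled for 1-colour Affymetrix arrays, per the labels' protocols. The authors deposited RMA values of 41345 probe sets for each tumour, and the submitters' processing notes name RMA and Partek. The log base is not stated, and the deposited values, from 2.47 to 13.6, were treated as log2 values. Detected genes kept an offset between the deposited arrays, which the relative deviations take off. The number of arrays limits the precision. Genes came from the platform annotation (23521 probe sets with 1 gene, 1814 with several, not used, and 16010 not listed), with symbols updated through Entrez identifiers by the RefSeq table of GRCm38.p6, which matched 23328. No pair of arrays shared over 0.22% of its values, so each counted as a sample. Tumours are numbered in record order.

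Means, SDs, ranges, deviations and Dixon's ratio were computed with pandas 2.3.3 and numpy 2.4.6 after the calls were tested on simulated data with known changes. The simulated noise was smaller than the median SD of the genes here, and changes were placed only in genes well above the floor. That test therefore does not show how often calls in these arrays, or near the floor, are wrong. Every detected gene of the set is named with its values, undetected ones by family or, within 0.3 of the floor, singly. From the effector list, the 4 widest and 2 narrowest ranges are named; from marker lists that moved with a result, the widest or defining genes. The members, lists, motifs and printed promoters were chosen with earlier results of these data known. Alternatives varied the floor, probe set rule, scaling, symbols, thresholds and the tumours included.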

Additional observations from a re-analysis of the deposited data

Results flagged for a closer look

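In 2 genes 1 tumour stood apart from the other 3 in the deposited values. The gap to the nearest over the range was above Dixon's 95% critical value for 4 samples, which chance passes in about 1 of 20 groups. Sema6a had a ratio of 0.8545, with tumour 3 at 6.78 against 7.31 to 7.40. Slit2 had a ratio of 0.9313, with tumour 1 at 9.80 against 9.71 to 9.72, a gap of little size. Relative to all detected genes, Slit2 was not high in tumour 1 (-0.06).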

How the results depend on the processing

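No paired analysis was possible because all 4 tumours form 1 group. Of 100 recomputed counts and medians, 88 moved little. The floor mattered most. At the 99th percentile of receptor genes 19 guidance genes were detected, 2 of them with a range of at least 1, with 1 such effector gene, and the relative median in tumour 2 was -0.23. With no floor, all 68 counted as detected and the relative median in tumour 4 was 0.031. A 1.5-fold range was reached by 15 of 33 guidance genes, against 24.8% of all detected genes. It was reached by 12 of 45 effector genes, a share near that of all detected genes. Requiring every tumour above the floor, an alternative added after seeing the data, left 3 with a 2-fold range. Leaving out 1 tumour, with the floor set anew, gave 32 to 36 detected genes, 2 to 5 with a 2-fold range and median ranges of 0.39 to 0.46. The effector list gave 41 to 45 detected and 1 to 3 with a 2-fold range, the 1 without tumour 4. Relative medians ran from -0.03 to 0.06 in tumour 1, -0.14 to -0.06 in tumour 2, -0.08 to -0.01 in tumour 3 and 0.09 to 0.16 in tumour 4, so the shift in tumour 1 has no settled sign. Of 330 recomputed ranges of single genes, 10 lost and 2 gained the 2-fold call. Many of the 330 could not change, because a range does not depend on the floor. The probe set rule could change only Plxna1 and Plxnb1. Most losses came from leaving out a tumour. Without tumour 2, Epha5 (0.93), Robo1 (0.69) and Slit1 (0.74) lost the call. Without tumour 3, Efnb2 (0.59), Nrp2 (0.55), Robo1 (0.55) and Sema3c (0.78) lost it, and without tumour 4 Sema3c (0.82) and Slit1 (0.77). Robo1 (0.96) also lost it, and Slit3 (1.08) gained it, with the arrays at a common median. Signal near background limits Efnb2, Robo2, Ntn3 and Sema7a.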
